A study of Homo sapiens with 18 samples.

Results

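HERV9 is a family of human endogenous retroviruses, and LTR12 is the name of its long terminal repeats (LTRs). The members described here are all annotated copies whose repeat name begins with LTR12 or HERV9. They number 6154 of 2404193 repeat copies in the table of the 5-fluorouracil (5-FU) time course and 6011 of 1996647 copies in the Nutlin table, and 5993 of them stand in both. The names were LTR12, LTR12B, LTR12C, LTR12D, LTR12E, LTR12F, LTR12_ and HERV9-int, the last being the retroviral interior between the LTRs. The RNA came from IMR90, an established line of wildtype human lung fibroblasts, and was sequenced as stranded total RNA. Cells were given Nutlin at 5 µM for 6 h, or 5-FU at 375 µM for 6, 12 or 24 h. Each of these groups had a DMSO group of its own drug and time, and untreated cells received fresh medium 12 h before extraction. All 9 groups held 2 samples, and nothing in the labels says whether these were separate cultures, so p-values measure the spread between samples that may be technical replicates. Because the tables list no genes, the fibroblast identity of the line could not be checked against markers. A drop in RNA per cell and a loss of cells that make the RNA cannot be told apart in such bulk samples.

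An LTR carries the promoter and the polyadenylation signal of a retrovirus, and recombination between the 2 LTRs of an insertion leaves a solitary LTR behind. Most insertions of old families persist in that form. LTR12 copies are known as promoters of nearby genes and of non-coding transcripts, among others in the male germ line, where one drives an isoform of TP63, a relative of p53. Nutlin releases p53 from its inhibitor MDM2. 5-FU is an antimetabolite that disturbs RNA and DNA synthesis and also activates p53. The comparisons below ask which of these LTRs, and which interiors, changed in RNA level under either drug. Rows of the tables give a position on hg19 but no strand, and RNA begun inside a copy cannot be told apart from RNA that runs through it from elsewhere.

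LTR12C dominated the family. It had 2626 copies in the 5-FU table, 2265 of them covering at least 90% of the 1579-base consensus, and it held 40295 of the 69255 counts that members had over all 14 libraries. HERV9-int had 941 copies and 12179 counts. LTR12 (747 copies), LTR12F (569), LTR12_ (532), LTR12D (446), LTR12B (184) and LTR12E (109) made up the rest. Only 31.4% of the member copies had a count in any library of this table, and 21.2% did in the Nutlin table. The counts were concentrated: 77 copies held 50% of all member counts in the 5-FU table and 79 did in the Nutlin table. The copy with most counts, an LTR12C at chr17:45133790-45135214, held 4.19% and 4.92%.

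Levels were compared between names per length of annotated sequence, as CPM (counts relative to the scaled library size) per kilobase. The medians over the 14 libraries of the 5-FU table were 0.234 for LTR12F, 0.227 for LTR12E, 0.181 for LTR12C, 0.175 for LTR12_, 0.160 for LTR12, 0.102 for HERV9-int, 0.0897 for LTR12B and 0.0806 for LTR12D. Neighbours in this order overlapped in their ranges over libraries. LTR12F ran from 0.176 to 0.324 and LTR12D from 0.0513 to 0.120, so the ends of the order did not overlap. The 184 LTR12B copies had a median length of 450 bases but 271 kb in sum. Long rows thus weighed on the LTR12B level per kilobase, and its place in the order is uncertain. Full-length LTR12C copies stood at a median of 0.187 and partial ones at 0.0988. Copies of all LTR12 names pooled were at 0.168 within 1000 bases of an interior, close to the 0.172 of those elsewhere. Among full-length LTR12C copies alone these medians were 0.140 and 0.191. In the Nutlin table they had the other order, 0.0675 near an interior and 0.0623 elsewhere. Interiors longer than 4000 bases were at 0.105, against 0.102 for shorter ones. In the Nutlin table LTR12E (0.0894) and LTR12F (0.0645) again headed the order and LTR12D (0.0300) was last. There LTR12B, with 179 kb over 165 copies, stood at 0.0483, above LTR12 (0.0378) and HERV9-int (0.0304). The 2 tables were made separately, and no level is compared across them.

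Library totals ran from 2412334 to 6290320 counts in the 5-FU table and from 9109885 to 11880265 in the Nutlin table, of which members held 0.0911% to 0.149% and 0.0301% to 0.0429%. Of the counts outside rRNA, tRNA and small RNA copies, members held 0.143% to 0.225% and 0.144% to 0.174%. The lowest totals of the 5-FU table were those of DMSO 12 h, at 2412334 and 2540089, against 3927593 and 4084675 in 5-FU 12 h. Low counts in DMSO 12 h are thus from the shallowest libraries. In the Nutlin table both untreated columns hold the same values (0 copies differ), so they count as 1 library. The 2 libraries of 5-FU 24 h stood apart from each other: HERV9-int was at 175 CPM in replicate 1 and 295 CPM in replicate 2, and LTR12D at 28.5 and 47.4 CPM.

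**Figure D1:**
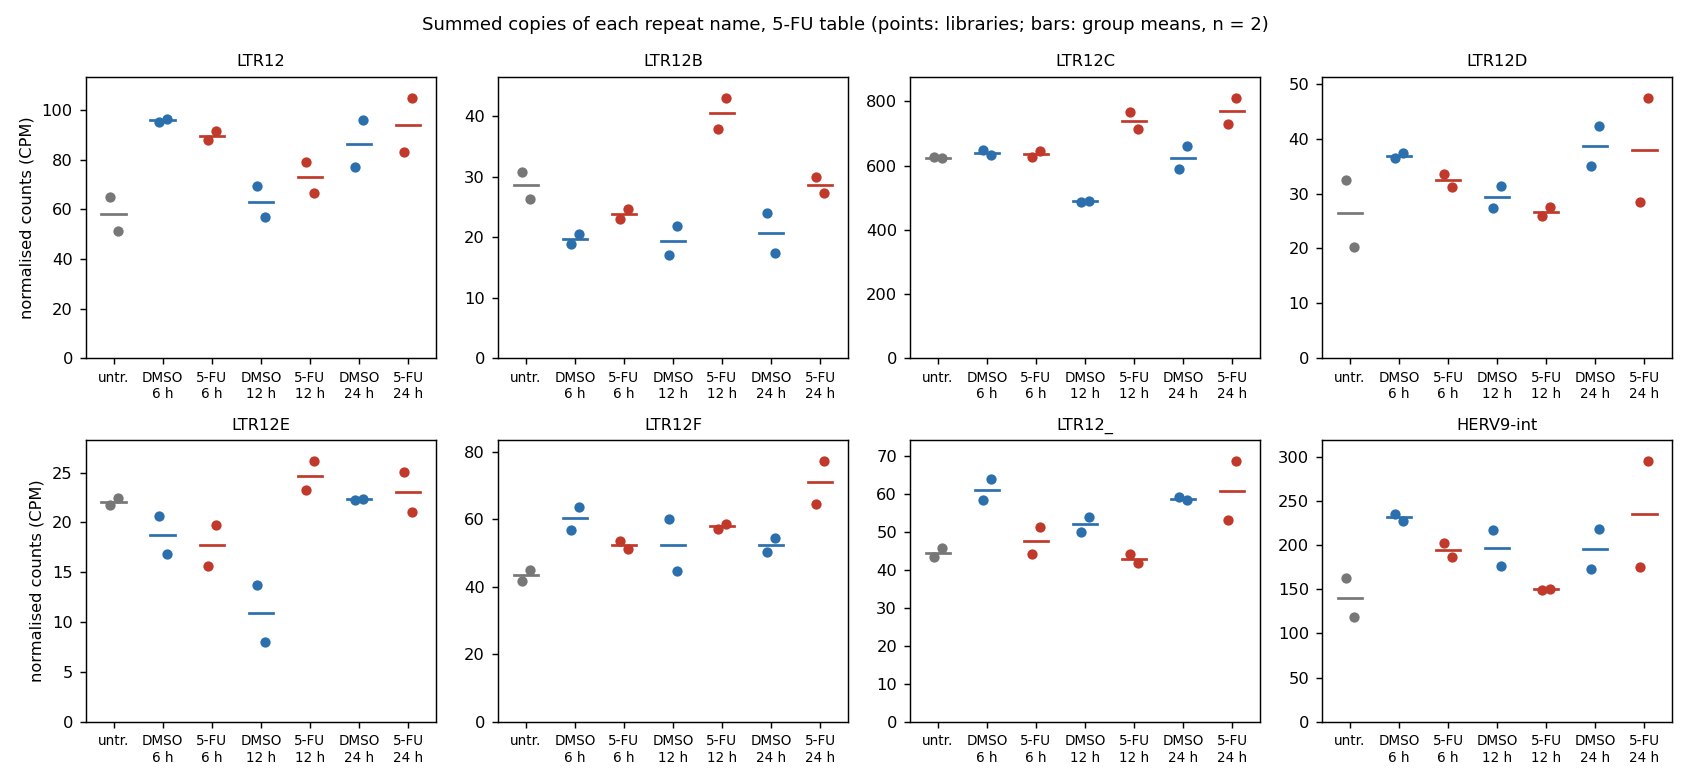
Level of each repeat name in the 5-FU table, in CPM summed over all copies (vertical axis, from 0), by group (horizontal axis). Points are libraries and bars are means of 2; LTR12C lies at 486 and 491 CPM in DMSO 12 h and at 768 and 713 CPM in 5-FU 12 h, while both 5-FU 12 h libraries of HERV9-int lie below the DMSO 12 h libraries.

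Under Nutlin 1 of the 8 names of the family was called, the interior. Summed over its copies, HERV9-int stood at 41.7 and 35.0 CPM in the DMSO libraries, at 54.1 and 58.9 CPM in the Nutlin libraries, and at 61.1 CPM in the untreated library. The drug and DMSO libraries did not overlap, and the untreated library was above both groups. HERV9-int rose by a log2 fold change of 0.56 (SE 0.11) over DMSO, with an adjusted p of 0.000954 from edgeR's quasi-likelihood test. Across all 1028 names tested, 12.2% were called, and 7.78% were called higher. The 7 LTR12 names did not pass: LTR12C was at 200 ± 9.77 CPM in DMSO and 226 ± 7.86 CPM with Nutlin (SD, n = 2), a log2 fold change of 0.18 (SE 0.07, adjusted p = 0.125). LTR12_ stood at a log2 fold change of 0.42 (SE 0.19, adjusted p = 0.144). LTR12D (-0.30, SE 0.19) and LTR12E (-0.33, SE 0.22) had negative values and the other 5 LTR12 names positive ones. Without DMSO replicate 1, LTR12C, LTR12F and LTR12_ also passed, with log2 fold changes of 0.22, 0.61 and 0.75, which makes 4 names of the family and 171 of all 1028 names called.

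After 6 h of 5-FU no name of the family passed the test, and no name of any family did (0% of 1078 called by edgeR's quasi-likelihood test). DESeq2 also called 0 of the 8 names. By edgeR 1 of them had an unadjusted p under 0.05, as had 112 of all 1078 names, and by DESeq2 0 of the 8 did. That 1 was LTR12_ (0.0275), at 61.2 ± 4.08 CPM in DMSO and 47.7 ± 5.08 CPM with 5-FU (SD, n = 2). Fitted on only the libraries of this time point, HERV9-int passed as lower (log2 fold change -0.30, adjusted p = 0.00958), in a fit that called 204 of 1063 names, 25 of them higher.

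At 12 h 3 LTR names rose, while 35.7% of all names were called and 16.9% were called higher. LTR12C, the most abundant, stood at 486 and 491 CPM in the DMSO libraries and at 768 and 713 CPM in the 5-FU libraries. Its log2 fold change was 0.60 (SE 0.08) with an adjusted p of 0.000143. LTR12B was at 17.1 and 21.8 CPM against 37.9 and 43.0 CPM, and rose by 1.06 (SE 0.21, adjusted p = 0.00242). A single copy at chr5:52408168-52408617 held 41.5% of the LTR12B counts of the table; without it the name's log2 fold change was 0.47 and not called (adjusted p = 0.253). LTR12E was at 13.7 and 8.03 CPM against 23.2 and 26.1 CPM, and rose by 1.18 (SE 0.26, adjusted p = 0.00484). Groups did not overlap for any of the 3.

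The DMSO 12 h libraries were themselves low for 2 of these names. LTR12E stood at 22.1 ± 0.455 CPM in untreated cells, 18.7 ± 2.70 in DMSO 6 h, 10.9 ± 4.02 in DMSO 12 h and 22.3 ± 0.0608 in DMSO 24 h (SD, n = 2). LTR12C stood at 624 ± 1.74, 641 ± 9.98, 489 ± 3.88 and 625 ± 52.0 CPM in the same order. Against the DMSO libraries of 6 h and 24 h in place of 12 h, the 12 h change of LTR12C was 0.23 (adjusted p = 0.0158), that of LTR12B 1.00 (0.000713) and that of LTR12E 0.27, no longer called (0.281). With that control HERV9-int (-0.51, adjusted p = 0.0444) and LTR12_ (-0.48, 0.0118) were called lower. LTR12E was also lost without DMSO 12 h replicate 2 (0.85, adjusted p = 0.0505).

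HERV9-int had a negative value at 12 h. It stood at 217 and 177 CPM in DMSO and at 149 and 150 CPM with 5-FU, without overlap, but its log2 fold change of -0.39 (SE 0.22) did not pass (adjusted p = 0.177). The result depended on scaling and on the libraries fitted: with library size alone it was -0.73 (adjusted p = 0.0239), and with only the 12 h libraries -0.49 (5.73e-05). With library size alone LTR12_ was called lower as well (-0.60) and LTR12C was no longer called (0.27, adjusted p = 0.0977). That scaling moved the median log2 fold change of all names at 12 h by -0.33, and factors from all copies moved it by 0.24.

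At 24 h 1 of the 8 names, LTR12C, was called, against 8.44% of all names (7.05% higher). It stood at 588 and 662 CPM in DMSO and at 728 and 811 CPM with 5-FU, a log2 fold change of 0.30 (SE 0.08, adjusted p = 0.0256). The call was lost in 9 of 15 alternatives, among them the fits without DMSO 24 h replicate 1 (0.20, adjusted p = 0.349) or replicate 2 (0.36, 0.0560). LTR12F, at 50.4 and 54.4 CPM against 64.6 and 77.1 CPM, did not pass (0.44, SE 0.15, adjusted p = 0.0792), nor did HERV9-int (0.27, SE 0.21, adjusted p = 0.520).

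The 2 libraries of 5-FU 24 h gave different sets of calls. Without replicate 1, HERV9-int (0.59, adjusted p = 0.0109) and LTR12F (0.56, adjusted p = 0.0152) passed beside LTR12C (0.37, adjusted p = 0.00214), and 218 of all 1078 names were called, 178 of them higher. Without replicate 2, HERV9-int was at -0.17 (adjusted p = 0.494) and LTR12F at 0.30 (adjusted p = 0.188), LTR12C passed at 0.22 (adjusted p = 0.0450), and 231 names were called, 138 of them higher. The difference between the 24 h and the 6 h effect of 5-FU passed for 0 of the 8 names by edgeR and by DESeq2. Of all names 1.21% passed by edgeR. By that test 2 names, LTR12C and LTR12F, had an unadjusted p under 0.05 (0.0137 and 0.00838), among 148 of all 1078 names. Without 5-FU 24 h replicate 1, HERV9-int, LTR12C, LTR12F and LTR12_ passed, all with a higher log2 fold change at 24 h, among 250 of the 1078 names called, 214 of them higher.

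**Figure D2:**
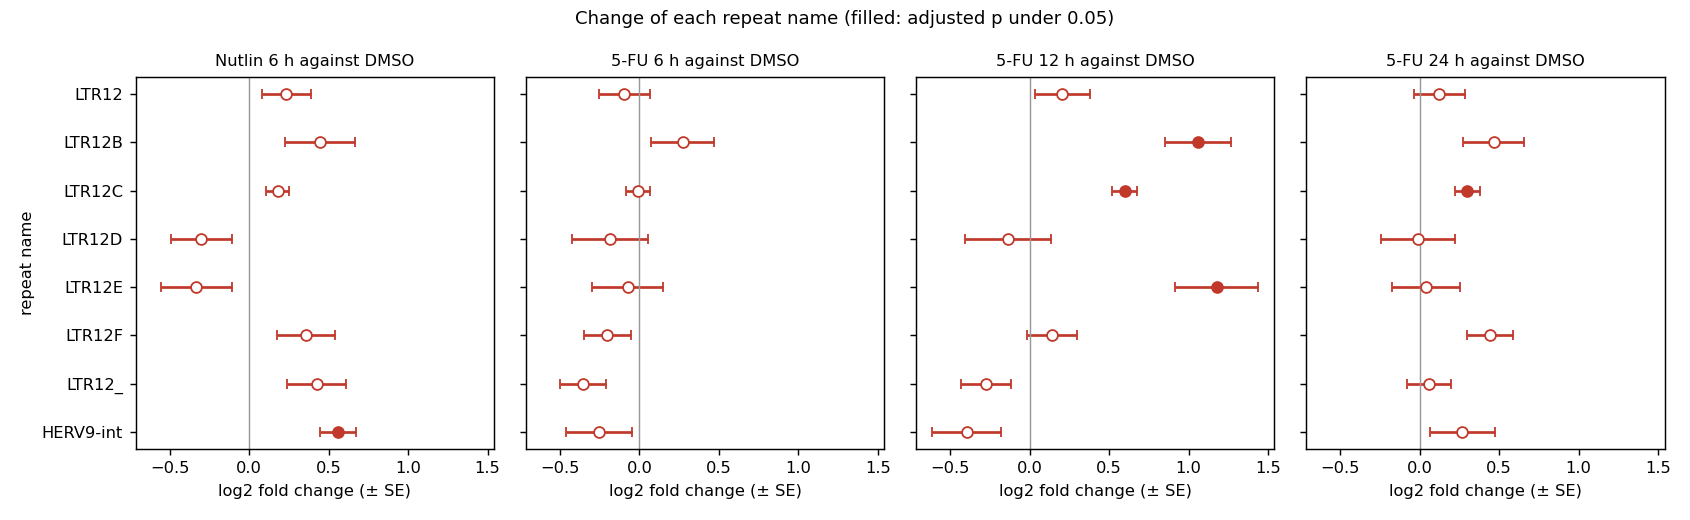
Log2 fold change of each repeat name against the DMSO group of its own drug and time (horizontal axis, bars ± SE, n = 2 a group), with filled points for an adjusted p under 0.05. Under Nutlin only HERV9-int is filled, at 0.56; under 5-FU LTR12B, LTR12C and LTR12E are filled at 12 h and LTR12C at 24 h.

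The names were then compared with LTR12C inside each library, as the log2 ratio of summed counts, which does not depend on the scaling between libraries. The ratio to LTR12C was lower under 5-FU than in DMSO for 3 of 7 names. The mean change over the 3 time points was -0.22 for LTR12, -0.43 for LTR12D and -0.50 for LTR12_ on the log2 scale. Each had a two-sided exact permutation p of 0.00926 within time points, the smallest that the arrangements can give, and an adjusted p of 0.0216 over the 7 names. For LTR12_ the differences were -0.35 at 6 h, -0.87 at 12 h and -0.26 at 24 h. LTR12D moved by -0.18, -0.73 and -0.37 at these times, and LTR12 by -0.09, -0.39 and -0.18, so the direction was shared by all 3 time points. Untreated cells, which were outside the test, had low ratios as well. Their ratios to LTR12C were 0.0692 and 0.0734 for LTR12_, 0.0520 and 0.0326 for LTR12D, and 0.104 and 0.0825 for LTR12. For all 3 names both untreated libraries lay below every DMSO library, and that difference was not tested. LTR12C itself was called higher at 12 h (0.60) and 24 h (0.30), so a lower ratio need not be a fall of the other name. Against DMSO at 6, 12 and 24 h, LTR12 stood at -0.10, 0.21 and 0.12 on the log2 scale. LTR12D stood at -0.19, -0.14 and -0.01 and LTR12_ at -0.36, -0.27 and 0.06, with no call for any of them.

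HERV9-int (-0.44) and LTR12B (0.31) had an exact permutation p of 0.0463 and did not pass after adjustment (0.0648). LTR12F (-0.17, adjusted exact permutation p = 0.216) and LTR12E (0.10, 0.704) did not pass either. All 3 calls were lost without DMSO 24 h replicate 2 and without 5-FU 24 h replicate 1. Without the 12 h time point the smallest exact p is 0.0556, so none could pass; the changes of LTR12, LTR12D and LTR12_ were then -0.13, -0.27 and -0.31.

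The share of interior to LTR counts had no common direction over the drugs. In the Nutlin table HERV9-int had 0.145 and 0.137 counts for each LTR12 count in the DMSO libraries, and 0.181 and 0.187 in the Nutlin libraries. That is a log2 difference of 0.38, beside a pooled SD of 0.05003 within groups. The untreated library held 0.187, close to the Nutlin libraries and above both DMSO libraries. Whether the DMSO libraries differed from untreated cells was not tested. The exact permutation test used for the ratios was not run here, since with 2 libraries against 2 its p cannot go below 0.333. Under 5-FU the log2 ratio differed from DMSO by -0.20 at 6 h, -0.88 at 12 h and -0.04 at 24 h. At 12 h the ratio was 0.300 and 0.249 in DMSO and 0.144 and 0.154 with 5-FU. Untreated cells of the 5-FU table held 0.189 and 0.142, below both DMSO 12 h libraries and on either side of the 5-FU 12 h ones. Over the 3 times the change of -0.37 did not pass (two-sided exact permutation p = 0.0833). At 24 h the 5-FU libraries stood at 0.173 and 0.255, on either side of the DMSO libraries at 0.202 and 0.229. Without 5-FU 24 h replicate 2 the change over times was -0.47, with an exact permutation p of 0.00926.

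Single copies were tested where their counts passed a filter on low values, which 71 of 6011 members did in the Nutlin table and 231 of 6154 in the 5-FU table. Copies can pass through the group in which they are high, so these are not a sample of all members. In the Nutlin comparison 8 of 71 copies were called, all higher, against 9.57% of all 21328 copies tested (5.36% higher). The median log2 fold change was 0.35 over the 71 members and 0.0071 over all copies. For comparison, 6 of 66 copies of LTR7 and HERVH, the LTR and interior of another family, were called, 3 in each direction. Of LTR5 and HERVK, a further family, 15 of 127 copies were called, 11 higher and 4 lower. Of the 8 LTR12 and HERV9 copies, 3 were interiors of 13 tested and 5 were LTR12C of 44 tested.

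The Nutlin call with the smallest p was an LTR12C at chr14:24942172-24943730. It stood at 0.756 and 0.834 CPM in DMSO, 4.05 and 3.74 CPM with Nutlin and 1.77 CPM untreated, and rose by 2.28 (SE 0.41, adjusted p = 0.00492) on the log2 scale. The drug libraries lay well above the rest. An LTR12C at chr7:4832978-4834366 was at 1.30 and 2.92 CPM in DMSO, 7.40 and 7.61 CPM with Nutlin and 2.80 CPM untreated, and rose by 1.82 (SE 0.34, adjusted p = 0.00594). It is the one member called under both drugs: in the 5-FU table it stood at 5.62 and 4.47 CPM in DMSO 24 h and at 14.4 and 12.9 CPM in 5-FU 24 h, and rose by 1.43 (SE 0.32, adjusted p = 0.0104). That 24 h call was lost without either DMSO library (1.58 and 1.24, adjusted p = 0.0673 and 0.163).

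The interior at chr6:151171787-151177038, the HERV9-int copy with most counts in the 5-FU table, was at 0.972 and 0.208 CPM in DMSO (9 and 2 counts) and at 3.53 and 3.62 CPM with Nutlin (40 and 30 counts). It rose by 2.58 (SE 0.51, adjusted p = 0.00831), yet the untreated library held 5.13 CPM, more than either Nutlin library. In the 5-FU table the same copy was not called at any time.

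On chromosome 1 an interior and the LTR beside it were both called. HERV9-int chr1:119715399-119720335 was at 0.216 and 0.208 CPM in DMSO and 1.94 and 2.29 CPM with Nutlin (log2 fold change 3.24, SE 0.64, adjusted p = 0.00831). These are low counts, 2 and 2 in DMSO and 22 and 19 with Nutlin. LTR12C chr1:119721508-119723014 was at 4.11 and 5.42 CPM in DMSO and 12.4 and 7.97 CPM with Nutlin (1.11, SE 0.26, adjusted p = 0.0203). Between them lies a further interior piece, chr1:119720611-119721507, with 2.27 and 1.46 CPM in DMSO and 1.23 and 2.05 CPM with Nutlin, so the rise was not shared by every piece of this insertion. The call of the LTR12C was lost without Nutlin replicate 1 (0.73, adjusted p = 0.132).

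The remaining calls were of low counts as well. LTR12C chr10:90777511-90778898 had 35 counts in the Nutlin libraries and 3 in DMSO, 11.2-fold higher (95% exact counting interval 3.53 to 56.9, covering counting error only). HERV9-int chr13:100731077-100735924 rose by 2.75 (SE 0.69, adjusted p = 0.0263) from 0.216 and 0.208 CPM to 1.23 and 1.81 CPM, with 2.15 CPM in untreated cells. LTR12C chr14:100673664-100675034 rose by 1.98 (SE 0.56, adjusted p = 0.0447). The calls of these 3 copies were lost without 1 or more single libraries. The other 4, on chromosomes 14 (24942172), 7 and 6 and the interior on chromosome 1, were called in every alternative whose filter kept them.

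**Figure D3:**
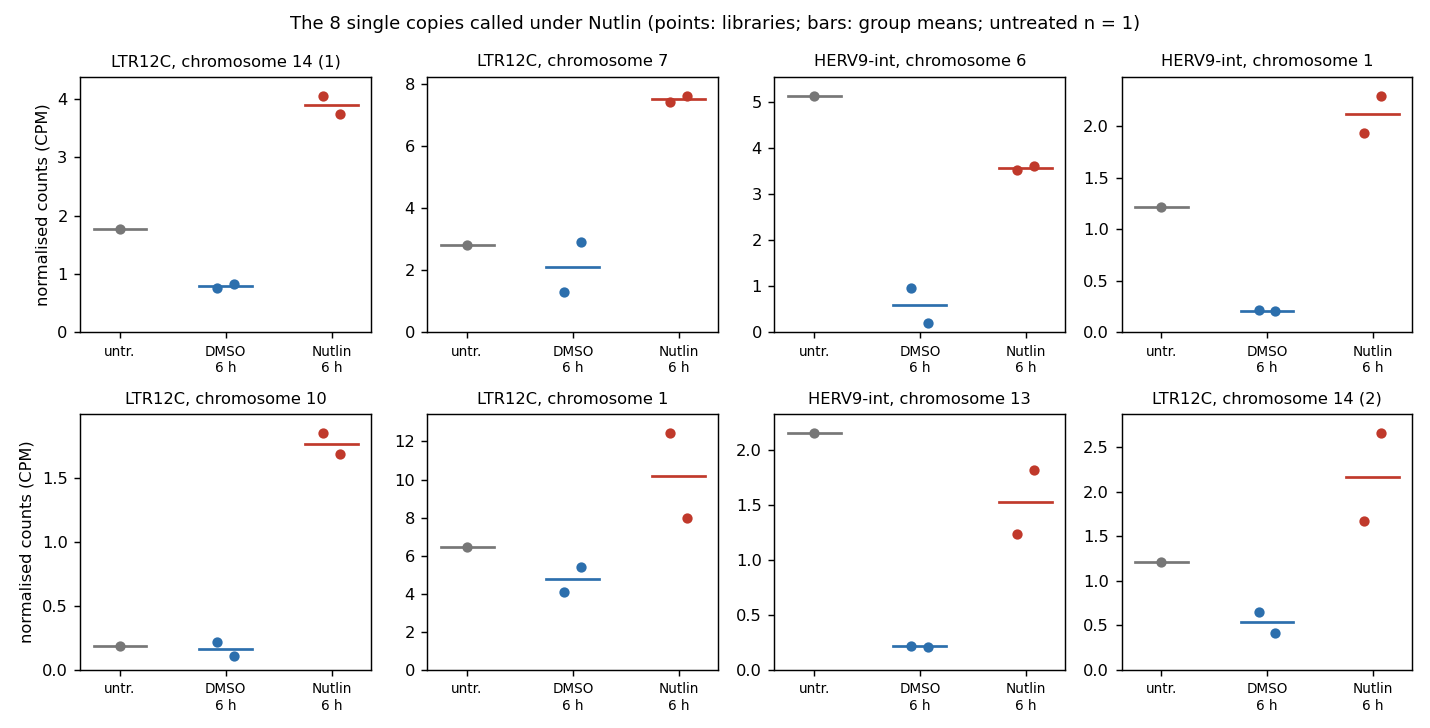
The 8 member copies called under Nutlin, in CPM (vertical axis, from 0), for untreated cells (1 library), DMSO and Nutlin (2 libraries each; bars are means). In all 8 both Nutlin points lie above both DMSO points, and the untreated point lies above both Nutlin points for HERV9-int on chromosomes 6 and 13.

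Under 5-FU no member copy was called at 6 h by edgeR, where 0.101% of all 63602 copies were called. DESeq2 also called 0 members. By edgeR's test 28 of 231 members had an unadjusted p under 0.05, as had 4690 of all 63602 copies. The member with the smallest p that could be read as 1 copy was the LTR12C at chr7:39616870-39618410, at 2.29 and 1.17 CPM in DMSO and 5.14 and 5.89 CPM in the drug libraries (a log2 difference of 1.67, SE 0.47, with an adjusted p of 0.337). This copy was called at both later times.

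At 12 h 28 of 231 member copies were called, 17 higher and 11 lower, against 9.71% of all copies (5.44% higher and 4.27% lower). The split followed the scaling: it was 24 higher and 7 lower with factors from all copies, and 14 and 15 with library size alone. Without single libraries of the comparison the count was 11 (DMSO replicate 1), 8 (DMSO replicate 2), 12 (5-FU replicate 1) and 15 (5-FU replicate 2). The 40 interiors tested had a median log2 fold change of -0.72 and their 4 calls were all lower, while the 135 LTR12C copies had a median of 0.22, with 12 higher and 6 lower. Over all copies the median was -0.04. At 24 h 13 members were called, 9 higher and 4 lower, against 4.23% of all copies (2.42% higher and 1.82% lower), and 7 without either DMSO library. The 8 members called at both times had the same sign at each. Both comparisons have their own controls, and the matching share over all copies was not computed. Of these 8, 2 are the pair on chromosome 8 described below, which cannot be read as single copies.

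The smallest p at 12 h was that of an LTR12C on the X chromosome, chrX:85226261-85227925. It stood at 7.91 and 8.79 CPM in DMSO 6 h, 6.67 and 9.18 in DMSO 12 h, 8.80 and 7.74 in DMSO 24 h, and 11.5 and 12.6 in untreated cells. With 5-FU it was at 16.1 and 13.3 CPM at 6 h, 63.2 and 52.6 CPM at 12 h and 38.2 and 24.3 CPM at 24 h. All 5-FU libraries were above all control libraries, and the 12 h libraries were highest. It rose by 2.87 (SE 0.30, adjusted p = 3.29e-06) at 12 h and by 1.91 (SE 0.28, adjusted p = 0.000175) at 24 h.

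The LTR12C at chr2:114461446-114462547 rose at both times as well. It was at 11.9 and 7.27 CPM in DMSO 12 h against 41.4 and 33.1 CPM in 5-FU 12 h (1.96, SE 0.29, adjusted p = 0.000227), and at 7.86 and 8.95 CPM against 43.1 and 31.9 CPM at 24 h (2.15, SE 0.28, adjusted p = 5.16e-05). The 8 control libraries, untreated ones included, lay between 6.51 and 11.9 CPM. The repeats around this LTR did not all move alike: of 11 tested repeats of other families within 10000 bases, 7 were called lower and 2 higher at 12 h. The 2 higher ones were an AluJr 735 bases before it and a MER94 145 bases after it. At 24 h 3 were called higher and 1 lower.

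The LTR12C at chr17:45133790-45135214, the member with most counts, was called at 12 h. It was at 19.6 and 28.3 CPM in DMSO 12 h and at 83.5 and 79.0 CPM in 5-FU 12 h (1.76, SE 0.25, adjusted p = 0.000101). Its other control libraries stood higher, from 36.1 to 48.1 CPM, and the 24 h values with 5-FU, 68.8 and 44.9 CPM, were not called (0.63, SE 0.23, adjusted p = 0.140), nor were those at 6 h (0.34, SE 0.23). Of 13 tested repeats of other families within 10000 bases 6 were called, all higher. The LTR12B at chr5:52408168-52408617 was at 7.41 and 8.03 CPM in DMSO 12 h and 23.2 and 25.3 CPM in 5-FU 12 h (1.65, SE 0.32, adjusted p = 0.00263), but untreated cells held 12.8 and 14.9 CPM.

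On chromosome 7 the LTR12C at chr7:39616870-39618410 rose from 2.97 and 1.53 CPM to 10.9 and 11.3 CPM at 12 h (2.28, SE 0.49, adjusted p = 0.00478) and from 2.81 and 1.38 CPM to 16.0 and 11.3 CPM at 24 h (2.69, SE 0.43, adjusted p = 0.000525). All 6 tested repeats of other families within 10000 bases had positive values at both times, and 2 and 4 of them were called. The 12 h call was lost without DMSO 12 h replicate 2 (1.89, adjusted p = 0.0799). LTR12F chr15:25161885-25162355 rose from 0.741 and 1.53 CPM to 8.23 and 7.26 CPM at 12 h (2.74, SE 0.61, adjusted p = 0.00649) and to 8.57 and 5.42 CPM from 1.31 and 1.89 CPM at 24 h (2.09, SE 0.51, adjusted p = 0.0194). It lay among 7 tested repeats that all had positive values at both times. Its 12 h call was lost without DMSO replicate 1 (2.33, adjusted p = 0.0989). Its 24 h call was lost without either DMSO library or without 5-FU replicate 1.

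On chromosome 21 an LTR and an interior piece that lie close together were called higher, at different times. The LTR12 at chr21:30727322-30727785 rose from 5.19 and 4.97 CPM to 17.9 and 10.7 CPM at 12 h (1.49, SE 0.36, adjusted p = 0.0111). The interior piece at chr21:30729268-30730129 rose from 10.5 and 8.26 CPM to 21.5 and 17.2 CPM at 24 h (1.04, SE 0.29, adjusted p = 0.0400). Both also had positive values at the time when they were not called. The LTR12 was at 0.95 at 24 h (SE 0.31, adjusted p = 0.0911 by edgeR's test). The interior piece was at 0.81 at 12 h (SE 0.30, adjusted p = 0.0949), so only the calls differed by time. Between them, HERV9-int chr21:30727786-30728558 stood at 10.4 and 12.6 CPM in DMSO 12 h, 14.7 and 14.5 in 5-FU 12 h, 6.74 and 9.98 in DMSO 24 h and 15.5 and 16.6 in 5-FU 24 h. Of 20 tested repeats of other families within 10000 bases of the interior piece, all had positive values at 24 h and 5 were called. Both calls were lost without single libraries of their comparison, 3 of the 4 in each case.

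Interiors were called as well. HERV9-int chr5:72222605-72230928, nearly the length of the consensus, was at 0.936 and 1.38 CPM in DMSO 24 h and 6.49 and 8.21 CPM in 5-FU 24 h, and rose by 2.64 (SE 0.57, adjusted p = 0.00792). At 12 h it stood at 7.41 and 3.82 CPM in DMSO and 7.35 and 6.10 CPM with 5-FU, so the DMSO 12 h libraries were above the DMSO 24 h ones and the 12 h groups overlapped. The 2 LTR12C copies that flank it had at most 2.08 CPM in any library and were not tested. The call at 24 h was lost without either DMSO library (2.38 and 2.91, adjusted p = 0.126 and 0.0681).

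At 12 h the 4 interiors called were all lower. HERV9-int chr1:173337550-173343923 fell from 14.1 and 6.12 CPM to 0.294 and 1.16 CPM (-3.74, SE 0.80, adjusted p = 0.00495), with controls of other times between 0.299 and 6.05 CPM. HERV9-int chr13:111842289-111850664 fell from 15.2 and 10.3 CPM to 3.23 and 5.23 CPM (-1.59, SE 0.41, adjusted p = 0.0175). HERV9-int chr16:21643016-21648270 (-1.81, SE 0.56, adjusted p = 0.0437) and HERV9-int chr17:30089882-30098353 (-1.80, SE 0.56, adjusted p = 0.0462) fell too. None of the 4 had a tested repeat of another family within 10000 bases. LTRs of the family adjoining 2 of them were tested and not called: the LTR12 at chr13:111850678-111851459 was at -1.58 (SE 1.57, adjusted p = 0.558) and that at chr17:30089058-30089881 at -0.73 (SE 0.62, adjusted p = 0.479). The LTR12 on the other side of the chromosome 17 interior, at chr17:30098354-30099147, was at -0.0025 (SE 0.53) and not called either. Each of the 4 interiors lost its call without 2 or more of the 4 libraries. At 24 h none of them was called.

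Of the LTRs that fell, the LTR12C at chr12:123076388-123077767 fell at both times. It was at 6.67 and 9.56 CPM in DMSO 12 h and 2.35 and 1.74 CPM in 5-FU 12 h (-1.97, SE 0.43, adjusted p = 0.00558), and at 16.7 and 19.4 CPM against 2.78 and 2.17 CPM at 24 h (-2.87, SE 0.36, adjusted p = 4.39e-05). Its DMSO libraries differed by time, with 4.16 and 3.91 CPM at 6 h, while the 5-FU libraries lay between 1.74 and 4.56 CPM at all times. An LTR12C at chr7:102914527-102915934 fell from 4.82 and 7.65 CPM to 2.65 and 0.871 CPM at 12 h (-1.81, SE 0.57, adjusted p = 0.0477) and from 5.43 and 4.30 CPM to 0.232 and 0.774 CPM at 24 h (-3.09, SE 0.61, adjusted p = 0.00394). The 12 h call was lost in 9 of 14 alternatives, the 24 h call in none of 13.

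Another LTR12C of chromosome 7, chr7:79605589-79607488, fell at 24 h from 10.1 and 11.4 CPM to 2.08 and 2.94 CPM (-2.05, SE 0.33, adjusted p = 0.000489). It stood at 29.6 and 27.3 CPM in DMSO 6 h and 12.97 and 15.3 CPM in DMSO 12 h, so its controls were lower at later times, and at each time both 5-FU libraries were below both DMSO libraries. The 2 tested repeats within 10000 bases fell with it, among them an LTR8 whose end lies 18 bases before it.

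**Figure D4:**
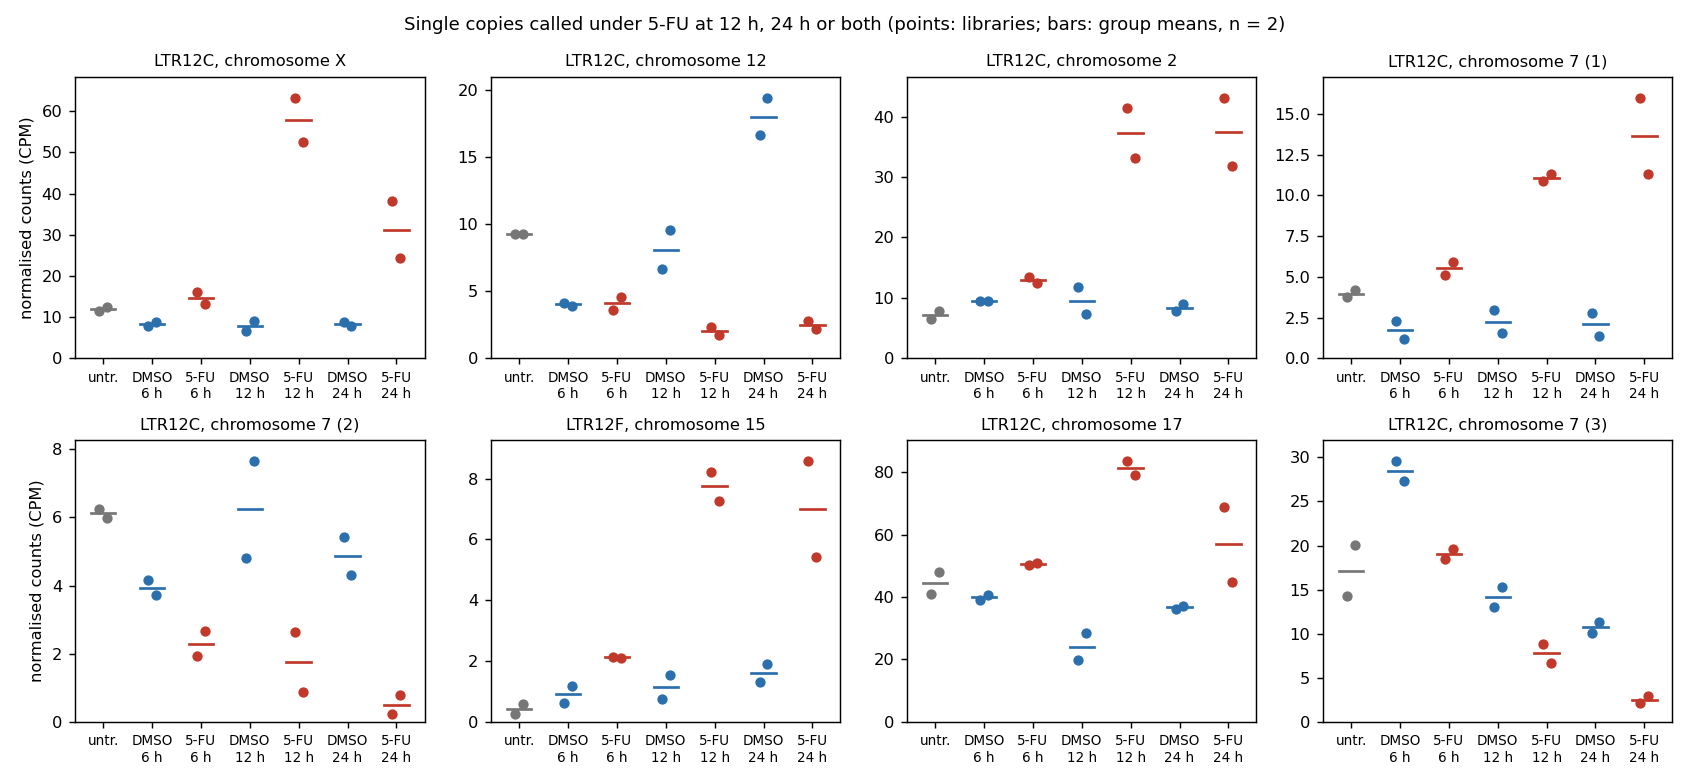
CPM (vertical axis, from 0) of 8 member copies called under 5-FU, by group (horizontal axis), with points for libraries and bars for means of 2. The copies on chromosomes X, 2 and 15 and the first of chromosome 7 are above their DMSO groups at 12 h and 24 h, the copy on chromosome 17 is called at 12 h only, and the copies on chromosome 12 and the other 2 of chromosome 7 lie below.

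The other members called at 12 h were named after their values were seen, to complete the list. LTR12C rose at chr10:31218123-31219525 (1.40), chr11:5314490-5316184 (1.62), chr12:123897795-123899225 (1.74), chr15:33310841-33312230 (1.58), chr1:179805208-179806630 (2.86) and chr4:128884536-128885956 (3.01), on the log2 scale with SE from 0.31 to 0.81. Those on chromosomes 10, 11 and 15 reached 9.29 to 35.9 CPM with 5-FU, the others 5.88 to 7.84 CPM. Each of these 6 calls was lost without 2, 3 or 4 of the 4 libraries taken singly, and that at chr12:123897795 in 9 of 14 alternatives, with 0.97 against the DMSO libraries of 6 h and 24 h. An LTR12C at chr13:25080178-25081473 was 9.57-fold higher (37 counts against 3, exact interval 3.03 to 48.5) and an LTR12E at chr13:50251902-50252970 was 8.28-fold higher (32 against 3, 2.59 to 42.2). An LTR12 at chr11:104209874-104210729 had 22 counts with 5-FU and 0 in DMSO, at least 5.69-fold higher against a floor of 3 counts over the group. Of the 4 libraries taken singly, leaving out any lost the LTR12 call. Leaving out 3 of them lost the LTR12E call, and leaving out 1 lost the LTR12C call at chr13:25080178.

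The falls at 12 h not yet described include 4 copies of low counts. LTR12C chr1:43381780-43383215 and LTR12C chr3:179492076-179493830 each had 10 counts in DMSO and 0 with 5-FU, at least 4.30-fold lower. LTR12C chr12:25018830-25020241 had 17 against 3 counts, 7.30-fold lower (exact interval 2.11 to 38.9), among 6 tested repeats with values of the same sign, 2 of them called lower. LTR12 chr1:75205717-75206601, with 12 and 8 counts in DMSO and 3 and 2 with 5-FU, had a log2 fold change of -2.32 (SE 0.71) and an adjusted p of 0.0420. Each of these 4 calls was lost when any of the 4 libraries was left out. At 24 h the list is completed by LTR12C chr4:81223810-81225199, at 16.3 and 19.96 CPM in DMSO and 35.2 and 61.8 CPM with 5-FU (1.43, SE 0.33, adjusted p = 0.0129); its DMSO 6 h libraries, at 49.5 and 36.3 CPM, were within that range, and the call was lost without 3 of the 4 libraries taken singly. All 20 tested repeats within 10000 bases of it had positive values and 2 were called.

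Called members were then set beside the other repeats around them. The matching share for called copies of all families was not computed, so these counts cannot be read as particular to the members. At 12 h 18 of the 28 had a tested repeat of another family within 10000 bases, and 8 had one called in the same direction. At 24 h these were 10 of 13, with 7. Under Nutlin 5 of 8 had a tested neighbour and 2 had one called alike: an L2c 3045 bases before the LTR12C on chromosome 10, which rose by 2.11, and an LTR33 787 bases after the LTR12C at chr14:24942172, which rose by 2.99. A neighbour called in the other direction was seen for 1 member at each 5-FU time, the LTR12C of chromosome 2 described above.

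A pair of calls on chromosome 8 cannot be read as changes of single copies. LTR12C chr8:12060066-12061429 and LTR12C chr8:12302340-12303703 have the same length, 1364 bases, and the same consensus span. In each of the 14 libraries of the 5-FU table at least 96.2% of the pair's counts lay in 1 of the copies. The first copy had 29 and 28 counts in DMSO 6 h, 15 and 18 in 5-FU 6 h, 20 and 20 in 5-FU 12 h and 17 and 33 in 5-FU 24 h, and 0 in the DMSO libraries of 12 h and 24 h. There the second copy held all counts, 8 and 6 at 12 h and 31 and 33 at 24 h. Untreated replicate 1 had 25 counts in the first copy and 1 in the second in the 5-FU table, but 1 and 24 in the Nutlin table, whose column is labelled as the same sample.

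As single copies, the first was at least 10.3-fold higher with 5-FU at 12 h and at least 17.3-fold higher at 24 h, and the second was at least 6.01-fold and 20.6-fold lower; all 4 were called. Summed, the pair stood at 5.80 and 5.68 CPM in DMSO 24 h and 3.94 and 5.11 CPM in 5-FU 24 h. The log2 fold change of the sum was -0.33 at 24 h (adjusted p = 0.744) and 1.14 at 12 h (adjusted p = 0.123), neither called. Summing equal-length partners, an alternative chosen after seeing the data, left 26 calls at 12 h and 11 at 24 h.

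For LTR12E on chromosome 5 counts also changed copy, but there the sum over the copies differed between replicates as well. It was 35 and 0 counts in 5-FU 24 h, 8 and 0 in 5-FU 12 h and 2 and 24 in untreated cells. Summing such copies therefore does not even out the replicates. Of 4 copies of 1127 bases, that at 69005839 held 35 counts in 5-FU 24 h replicate 1, 26 in 5-FU 6 h replicate 1 and 44 in DMSO 24 h replicate 1, and 0 in the other libraries. The copy at 70015066 held 22 in 5-FU 6 h replicate 2, 32 in DMSO 24 h replicate 2, 24 in untreated replicate 2 and 9 in DMSO 12 h replicate 1. That at 70585090 held 33 and 13 in DMSO 6 h and 14 or fewer elsewhere, and the copy at 69585571 had 0 throughout. The leading copy thus differed between replicates of one group. The copy at 70585090 had the smallest p of all members at 6 h (0.00117, adjusted p = 0.280, not called).

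Such partners were not common among expressed members. Of the members, 544 copies in 234 sets had an equal-length partner of the same name and chromosome in the 5-FU data, and held 4.37% of the member counts. Of the 13 sets with at least 50 counts, 8 had all counts in 1 copy in every library, and in 4 more than 1 copy led in some library. 1 of these 4 sets holds the called LTR12C at chr4:128884536-128885956, whose partner at 138973198 had 5 and 14 counts in 5-FU 12 h; summed, the pair rose by 2.97 (adjusted p = 0.0151), as the single copy did.

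**Figure D5:**
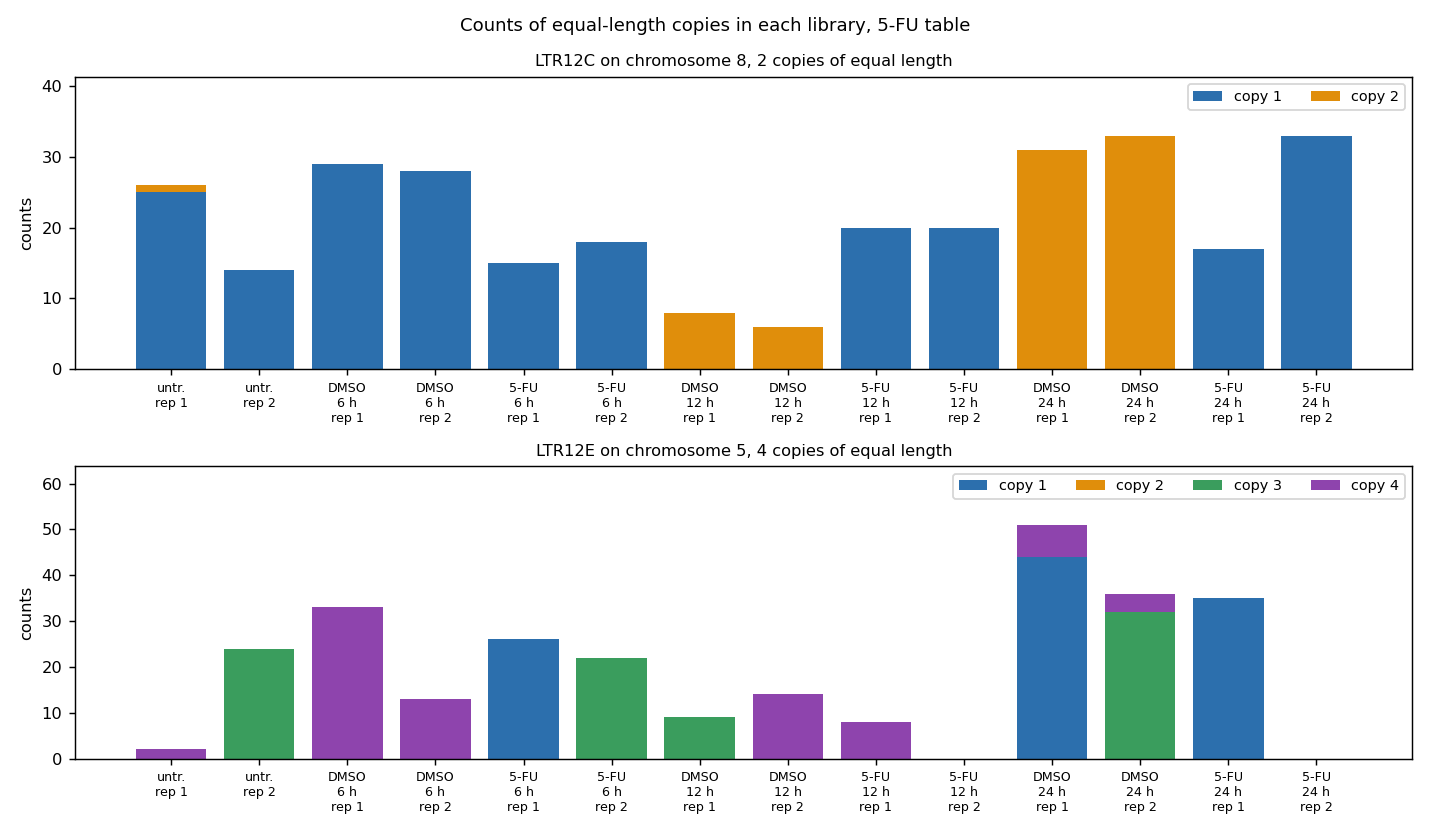
Counts (vertical axis, from 0) of equal-length copies in each of the 14 libraries of the 5-FU table (horizontal axis), stacked and coloured by copy, for the LTR12C pair on chromosome 8 and the 4 LTR12E copies of 1127 bases on chromosome 5. The chromosome 8 counts lie in copy 2 in the DMSO 12 h and 24 h libraries and, but for 1 count in untreated replicate 1, in copy 1 elsewhere. The LTR12E counts change copy between replicates of some groups, and they are 0 in replicate 2 of 5-FU 12 h and of 5-FU 24 h.

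The effects of 5-FU at 24 h and at 6 h differed for 3 members, against 0.385% of all copies. These were the chromosome 8 copy just described, the LTR12C at chr12:123076388, with -2.87 at 24 h and 0.03 at 6 h, and the interior at chr5:72222605, with 2.64 and -1.76.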

How the data were processed

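Stranded total RNA libraries of 18 samples were counted over annotated repeats by the authors, who deposited raw counts per repeat copy in 1 table for Nutlin and 1 for 5-FU. Per the submitters' processing notes the build was hg19 and the tools were Trimmomatic 0.32, cutadapt 1.10, Bowtie2, edgeR and DESeq2, with no roles given. The counting program, its treatment of reads that map to several copies, the repeat annotation and the use of strand are not given in the sources used here. Reads shared by near-identical copies can therefore be split or moved between them. No hg19 genome or annotation was used, so no copy is placed in a gene and no sequence is shown.

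Each table was fitted once with edgeR 4.0.16 (R 4.3.3): filterByExpr, TMM factors from the copies that passed, library size from all copies, the quasi-likelihood test, and Benjamini-Hochberg adjustment over all copies (or names) tested, with calls at an adjusted p under 0.05. SE is the log2 fold change divided by the square root of F. Names are sums over all copies. Ratios within libraries were tested by permuting drug and DMSO labels inside each time point (exact, two-sided). Counts of 3 or fewer in a group are given as ratios with an exact 95% interval or against a floor of 3 counts. The untreated column that appears in duplicate in the Nutlin table was used once. The fit and test were tested on simulated counts. For copies, 29% of 2-fold and 71% of 4-fold changes were recovered under Nutlin, and 2% and 30% at 5-FU 24 h. For names these were 89% and 100%, and 87% and 98%. Of the calls, 2.58% to 6.54% were false. A copy that was not called may therefore still have changed.

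The members and lists were chosen with earlier results of these data known. Copies named are, for each comparison, up to 6 called in each direction by p (the 2 smallest where none was called), those called in 2 or more drug comparisons, those with most counts of a name, and members within 1000 bases of these; the other called copies were added to complete the list. Alternatives were other scaling, filters, thresholds and controls, DESeq2 1.42.0, a replicate block, only the libraries of a comparison, leaving out each library, and leaving out the most abundant copy. Summing equal-length partners was added after seeing the data.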

Additional observations from a re-analysis of the deposited data

Results flagged for a closer look

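The effect of 5-FU differed between 24 h and 6 h for 3 member copies by edgeR's test of the difference itself. For HERV9-int chr5:72222605-72230928 the 24 h effect minus the 6 h effect was 4.40 on the log2 scale (SE 0.90, adjusted p = 0.0281). The call was lost in 8 of 16 alternatives that gave an adjusted p (DESeq2 gave none), 7 of them fits without a single library. For LTR12C chr12:123076388-123077767 it was -2.90 (SE 0.52, adjusted p = 0.00962), lost without DMSO 6 h replicate 2 (-2.86, adjusted p = 0.0558) and without 5-FU 6 h replicate 2 (-2.73, 0.0764). For LTR12C chr8:12060066-12061429 it was 8.11 (SE 1.09, adjusted p = 0.000821), and 0.46 (adjusted p = 0.900) once its equal-length partner was summed with it.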

How the results depend on the processing

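Called member copies under Nutlin (8) became 2 with at least 10 counts in every library, 4 at an adjusted p under 0.01, 4 with DESeq2, and 6 to 10 without single libraries. At 6 h of 5-FU 0 copies became 2 with no filter and stayed 0 without any single library. At 12 h 28 became 44 with the DMSO 6 h and 24 h libraries as control, 13 with at least 10 counts, 11 at the stricter threshold, 8 with no filter, 19 with DESeq2, and 8 to 15 without single libraries. At 24 h 13 became 7 to 17 without single libraries. The 3 copies that differed between 24 h and 6 h became 1 with at least 10 counts and 1 to 3 without single libraries.

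Called names under Nutlin (1) ranged from 1 to 4 without single libraries. At 6 h 0 became 1 with only the libraries of the comparison and 0 without any single library; at 12 h 3 became 2 to 3 without single libraries, 4 (2 higher and 2 lower) with library size alone or with the DMSO 6 h and 24 h libraries as control, 4 (3 and 1) with only the comparison's libraries, and 2 without the most abundant copy. At 24 h 1 became 2 with factors from all copies, 0 with RLE factors, library size alone, no structural RNA, the stricter threshold, DESeq2, only the comparison's libraries or without the most abundant copy, and 0 to 3 without single libraries. The difference between 24 h and 6 h went from 0 to 4 names at most, without 5-FU 24 h replicate 1. The interior to LTR ratio under 5-FU (-0.37) ran from -0.47 to -0.28 without single libraries. The names that passed against LTR12C (3) became 0 without the 12 h time point and 0 to 4 without single libraries. The Nutlin ratio (0.38) became 0.46 without the most abundant copies, 0.30 over copies that pass the filter, and 0.34 to 0.43 without single libraries. LTR12C chr8:12060066 at 24 h turned to -0.33 once summed with its partner. The causes of these changes were not tested, apart from those fixed by fewer copies, fewer libraries or a stricter threshold.

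Same-numbered samples deviated together with correlations of 0.0032, 0.00076, -0.0126 and 0.112 (Nutlin, 5-FU 6 h, 12 h and 24 h), so the numbers do not establish pairs. With a replicate block 7, 0, 24 and 12 copies were called in these comparisons and 3 between 24 h and 6 h, and 1, 0, 3, 1 and 0 names. Few members had enough counts: 71 and 231 were tested, and changes of the others were not detectable at this depth.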
